A study of Mus musculus with 9 samples.

Results

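The Toll-like receptors described here are Tlr1 to Tlr9 and Tlr13, 10 of the 54532 genes in the table of expression values. They were taken by name, whatever their levels. RNA had been sequenced from cells labelled as myeloid from C57BL/6 mice aged 6 to 8 weeks, in 3 groups of 3 libraries lettered A, B and C. The group KO carries the genotype label SOCS3 KO, and the groups fl and Gr_1 both carry the label wild type. Socs3 encodes a feedback inhibitor of cytokine receptor signalling through JAK and STAT proteins. The labels do not spell out what fl and Gr_1 stand for, which promoter or cell type drove the deletion, or whether the libraries within a group are from different animals. The p-values therefore speak only to the spread among these libraries, and that spread may be technical. Values are FPKM, fragments per kilobase of exon scaled per library by the submitters, so levels can be compared between genes.

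Toll-like receptors are membrane proteins with an outer horseshoe of leucine-rich repeats that binds microbial molecules and an inner TIR domain that recruits adaptor proteins. Tlr2, with Tlr1 or Tlr6 as its partner, senses bacterial lipoproteins, Tlr4 senses lipopolysaccharide and Tlr5 senses flagellin, all at the cell surface. Tlr3, Tlr7, Tlr8, Tlr9 and Tlr13 sit in endosomes and sense nucleic acids, and they need the transport protein Unc93b1 to get there. The signal passes through Myd88 or Ticam1 to NF-kappaB and interferon regulatory factors, and in neutrophils, monocytes and macrophages it leads to cytokine release.

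Library depth lay between 18.3 and 21.5 M (mega) recovered fragments. The members other than Tlr3 rested on 57 to 3926 fragments per library. Some features of the libraries bear on every value below. First, Socs3 was listed at 3.87, 4.02 and 3.40 FPKM in fl A, B and C, at 9.23, 6.76 and 8.37 in the libraries labelled KO, but at 37.0, 36.6 and 33.0 in Gr_1, so against fl the targeted gene was higher in the libraries labelled KO, not lower. A gene-level value cannot show whether part of the gene was missing. Second, Xist, transcribed in female cells, was 0.0028, 58.5 and 26.3 FPKM in KO A, B and C and at most 0.0104 in the other 6 libraries. Ddx3y, on the Y chromosome, was 9.62, 0 and 5.31 FPKM in KO A, B and C. It was 5.46 to 10.6 in fl and 8.02 to 13.1 in Gr_1. KO A thus had Ddx3y with almost no Xist, KO B had Xist without Ddx3y, and KO C had both. Last, KO C lay between KO A and KO B in 61.5% of the 12289 genes tested, against 15.6% to 44.4% for each of the other 8 libraries within its own group. Its median distance from the average of KO A and KO B was 0.06 on the log2 scale, against 0.08 to 0.18 for the other libraries. Whether KO C holds RNA of both was not tested, and the receptor changes that involve the libraries labelled KO are also given without it. The neutrophil genes S100a8, S100a9 and Ly6g and the monocyte gene Csf1r were detected in every library. Lyz2, a lysozyme of myeloid cells, was 9165 ± 725 FPKM in fl, 10663 ± 163 in Gr_1 and 56.3 ± 3.30 in the libraries labelled KO (SD, n = 3).

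The family was carried by a few of its members. Tlr2 was first and Tlr13, which senses bacterial ribosomal RNA, was second in all 3 groups, and together they made up 65.8% of the summed FPKM of the 10 genes in fl, 65.4% in the libraries labelled KO and 73.1% in Gr_1. In fl the order went on with Tlr9, Tlr8, Tlr7, Tlr4, Tlr1, Tlr6, Tlr5 and Tlr3, where Tlr9, Tlr8 and Tlr7 overlapped as neighbours, as did Tlr1 and Tlr6. In the libraries labelled KO, Tlr8, Tlr7, Tlr9 and Tlr4 overlapped as neighbours, followed by Tlr6, Tlr1, Tlr5 and Tlr3. In Gr_1, Tlr8 was the third, then came Tlr5, Tlr4, Tlr6 and Tlr7, which overlapped as neighbours, and Tlr9, Tlr1 and Tlr3 closed the order. The summed level was 106.9, 105.7 and 89.6 FPKM in fl A, B and C, 79.1, 58.0 and 66.9 in the libraries labelled KO, compared with 133.4, 133.0 and 169.9 in Gr_1. The 3 groups did not overlap in this sum as deposited. Rescaled to the recovered library totals, a setting chosen after seeing the data, fl (90.6 to 113) and Gr_1 (112 to 146) overlapped, while the libraries labelled KO (64.1 to 82.6) lay below both. The endosomal receptors gave 43.0% to 46.8% of it in fl, 36.5% to 47.1% in the libraries labelled KO and 38.9% to 42.0% in Gr_1. In such bulk samples, fewer cells of a type and less RNA per cell cannot be told apart.

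**Figure D1:**
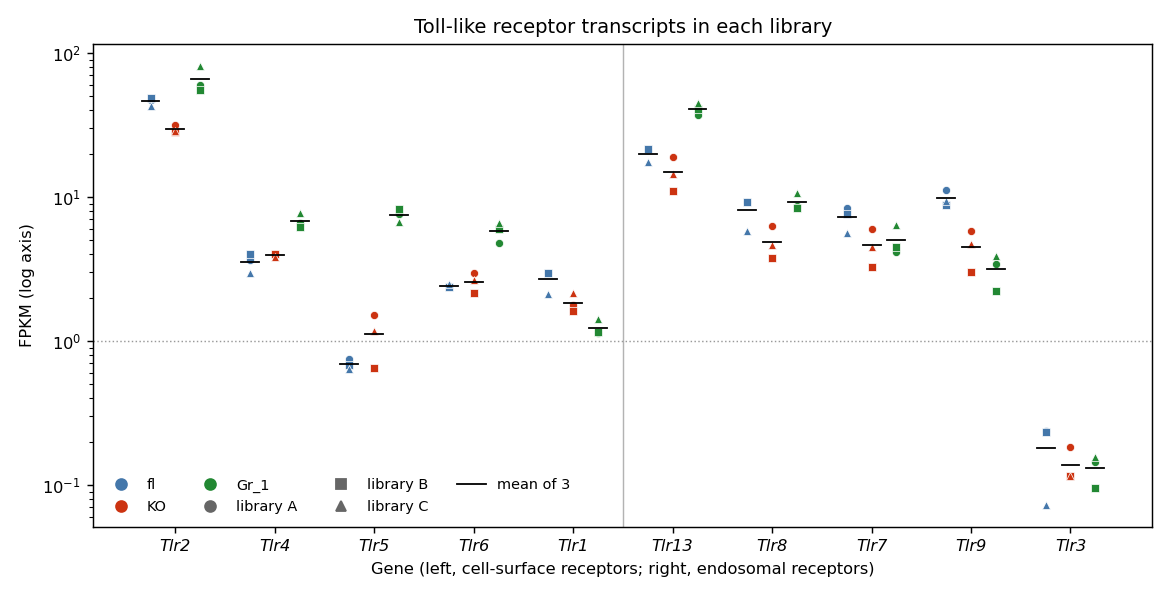
FPKM of the 10 Toll-like receptors (log axis) in each of the 9 libraries, with points for libraries and a bar for the group mean. Tlr2 (28.4 to 81.3 FPKM) and Tlr13 (11.0 to 45.1 FPKM) lie highest in all groups, Tlr3 stays at or under 0.236 FPKM, and Tlr5 stands far higher in Gr_1 than in the other groups.

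The libraries labelled KO were first compared with fl, which like Gr_1 carries the genotype label wild type. Tlr2 and Tlr9 were lower in the libraries labelled KO. By limma 0 members passed as higher, also at an unadjusted p under 0.05 and under voom, while 6 had an unadjusted p under 0.05 as lower. The share of all genes at that unadjusted threshold is not given, so the count of 6 has no background here. At the adjusted threshold Tlr2 and Tlr9 are 2 of the 9 members tested (22.2%). Of all genes tested, 11.0% passed in either direction there, 6.52% as lower and 4.48% as higher. The median log2 change of the 9 was -0.43, against -0.01 over all genes tested. Groups did not overlap for 2 of the 10 members, where 31.4% of all genes tested showed no overlap.

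Tlr2 (ENSMUSG00000027995, chr3:83836272-83841767 on GRCm38, minus strand) was 47.2, 48.4 and 42.9 FPKM in fl A, B and C and 31.6, 28.4 and 28.7 in KO A, B and C. Every library labelled KO lay below every fl library. The mean was 1.56-fold lower, a log2 change of -0.63 ± 0.13 (SE; limma, adjusted p = 0.0176). Without KO C the adjusted p was 0.0723, without fl A 0.0594 and without fl B 0.0672, so the call rested on these libraries while its size held between -0.59 and -0.61 in those fits.

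Tlr1 and Tlr6, the partners of Tlr2, lie 18.5 kb apart on the same strand of chromosome 5. Tlr1 (ENSMUSG00000044827, chr5:64924679-64933563) was 2.95, 2.95 and 2.12 FPKM in fl and 1.77, 1.62 and 2.14 in the libraries labelled KO, with an overlap made by fl C and KO C. Its log2 change was -0.36 ± 0.12 (limma, adjusted p = 0.0971), and -0.48 with an adjusted p of 0.0314 without fl C. Tlr6 (ENSMUSG00000051498, chr5:64952031-64960097) was 2.39, 2.35 and 2.48 FPKM in fl and 2.97, 2.15 and 2.64 in the libraries labelled KO, which spread to both sides of fl. Its adjusted p was 0.76, and the sign of its small difference of 0.07 turned to -0.01 without KO A. Tlr1 and Tlr6 share 189 exact stretches of 125 bases within their exons, 5.80% of those of Tlr1 and 5.21% of those of Tlr6. No other pair among the 12 Tlr genes shares one. Fragments wholly within these stretches cannot be told apart by sequence, and whether they were counted for either gene is not given.

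Tlr4 (ENSMUSG00000039005, chr4:66827584-66930284, plus strand), the lipopolysaccharide receptor, was 3.67, 4.03 and 2.97 FPKM in fl and 4.03, 4.04 and 3.83 in the libraries labelled KO. The groups overlapped, and the difference of 0.13 did not pass (limma, adjusted p = 0.471). Tlr5 (ENSMUSG00000079164, chr1:182954788-182976044, plus strand), the flagellin receptor, was 0.750, 0.684 and 0.644 FPKM in fl and 1.52, 0.653 and 1.18 in the libraries labelled KO. KO B lay among the fl libraries and the other libraries labelled KO above them. Its log2 difference was 0.30 ± 0.15 (limma, adjusted p = 0.234) with KO B and 0.47 without it, where it passed (adjusted p = 0.0342). Tlr5 was under 1 FPKM in all 3 fl libraries and entered the test through Gr_1.

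Tlr9 (ENSMUSG00000045322, chr9:106222598-106226883, plus strand), which binds unmethylated CpG DNA, was 11.1, 8.85 and 9.39 FPKM in fl and 5.82, 2.99 and 4.68 in KO A, B and C. All libraries labelled KO lay below all fl libraries. The mean was 2.18-fold lower, a log2 change of -1.0 ± 0.21 (limma, adjusted p = 0.0184). The adjusted p was 0.0568 without KO C and 0.0652 without fl A. With KO C left out, none of the 9 members passed in this comparison, and the same held without fl A, while 4 passed without fl C or without KO A, 3 without KO B and 1 without fl B. Without KO C the log2 changes were -1.04 for Tlr9, -0.44 for Tlr1, 0.15 for Tlr4, 0.27 for Tlr5, 0.05 for Tlr6, -0.57 for Tlr7, -0.60 for Tlr8 and -0.44 for Tlr13, each in the direction it had with KO C.

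The RNA sensors on the X chromosome had lower means with overlapping libraries. Tlr7 (ENSMUSG00000044583, chrX:167304929-167330558, minus strand) was 8.41, 7.67 and 5.62 FPKM in fl and 6.02, 3.28 and 4.53 in the libraries labelled KO (log2 difference -0.57 ± 0.21, limma, adjusted p = 0.128). Its neighbour at 40.6 kb, Tlr8 (ENSMUSG00000040522, chrX:167242696-167264329, minus strand), was 9.20, 9.19 and 5.84 FPKM in fl and 6.29, 3.75 and 4.63 in the libraries labelled KO (-0.62 ± 0.20, limma, adjusted p = 0.0807). Tlr13 (ENSMUSG00000033777, chrX:106143204-106160493, plus strand) was 21, 21.4 and 17.6 FPKM in fl and 18.9, 11.0 and 14.5 in the libraries labelled KO (-0.43 ± 0.17, limma, adjusted p = 0.144). In each of the 3, fl C and KO A made the overlap. Tlr8 passed without fl C (adjusted p = 0.0271) and without KO A (0.0414), and Tlr13 passed without KO A (0.0299). Tlr3 (ENSMUSG00000031639, chr8:45395665-45411080, minus strand), the double-stranded RNA receptor, had 7 to 27 fragments per library and did not reach the test. It was 0.236, 0.231 and 0.0727 FPKM in fl, 0.184, 0.115 and 0.115 in the libraries labelled KO, with 0.144, 0.0952 and 0.156 in Gr_1, and no difference was detectable at this depth.

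Within the libraries labelled KO, KO B was lowest in 8 of the 10 members and KO A highest in 8, with KO C between them in 7. The members on autosomes Tlr2, Tlr5, Tlr6 and Tlr9 had this order as well as Tlr7, Tlr8 and Tlr13 on X. The neutrophil marker Ly6g had the same order, at 152, 62.0 and 108 FPKM in KO A, B and C, as did Csf1r at 57.3, 36.1 and 47.9. Among fl, fl C was lowest in 8 of the 10. Against fl, marker genes of monocytes were lower in the libraries labelled KO (9 of 10 tested passed as lower, 0 as higher), with a summed level of 1236 to 1473 FPKM against 2601 to 2667. Of the macrophage markers 3 of 8 and of the conventional dendritic cell markers 3 of 6 passed as lower, with sums of 109 to 131 against 181 to 187 and of 21.9 to 23.4 against 33.6 to 38.5. Neutrophil markers were higher in 6 of 10, with sums of 68390 to 97525 against 62577 to 69774. T and NK cell markers passed as higher in 5 of 6 (133 to 252 against 138 to 200), plasmacytoid dendritic cell markers in 3 of 6, with 1 lower (67.4 to 87.4 against 89.3 to 98.0), and B cell markers in 0 of 8 in either direction, also at an unadjusted p under 0.05 and under voom (42.0 to 77.4 against 63.1 to 85.6). The count of T and NK cell markers was 2 without KO B or KO C and 3 without KO A or any 1 fl library. Without KO C, 0 plasmacytoid dendritic cell markers were higher and 1 macrophage marker was lower, and that macrophage count was also 1 without fl A or fl B. Without KO A or KO B, 2 plasmacytoid dendritic cell markers were higher. Of all genes tested, 4.48% passed as higher and 6.52% as lower. Single genes made a large part of some sums. Nkg7 was 118 to 226 FPKM in the libraries labelled KO and 133 to 193 in fl. S100a9 was 27438 to 38855 FPKM against 24762 to 29022. No list had a marker at 0 in all libraries of a group. Their part in the lower Tlr2 and Tlr9 was not tested.

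Gr_1 was compared with fl, both labelled wild type. All 5 surface receptors differed. Tlr5 rose 10.8-fold, Tlr6, Tlr4 and Tlr2 rose by smaller factors and Tlr1 fell, while among the endosomal receptors Tlr13 rose and Tlr9 fell. These 7 of 9 members tested (77.8%) stand against 61.4% of all genes tested, of which 30.0% passed as higher and 31.4% as lower. The median log2 change of the 9 members was 0.48, against -0.03 over all genes tested. Groups did not overlap for 7 of the 10 members, beside 67.5% of all genes tested.

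Tlr5 was 7.59, 8.21 and 6.67 FPKM in Gr_1 A, B and C, and every one of these lay above all fl libraries. The mean rose from 0.692 ± 0.0535 to 7.49 ± 0.773 FPKM (SD, n = 3), a log2 change of 2.32 ± 0.15 (limma, adjusted p = 5.03e-06). Since Tlr5 entered the test through Gr_1, where it is high, the fit without a filter on low values is given too, with the same change and an adjusted p of 3.94e-05. Tlr6 was 4.79, 6.01 and 6.60 FPKM in Gr_1, also above all fl libraries, and rose 2.41-fold (0.99 ± 0.12, limma, adjusted p = 0.000128). Tlr4 was 6.56, 6.22 and 7.74 FPKM in Gr_1, 1.92-fold above fl with no overlap (0.78 ± 0.10, limma, adjusted p = 0.000234). Tlr1, the neighbour of Tlr6 and its counterpart as a partner of Tlr2, went the other way. It was 1.14, 1.15 and 1.42 FPKM in Gr_1, below all fl libraries, and fell 2.16-fold (-0.71 ± 0.12, limma, adjusted p = 0.000976).

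Tlr2 was 59.9, 55.6 and 81.3 FPKM in Gr_1, above all fl libraries, with Gr_1 C well above the other 2. Rescaled to the recovered library totals, Gr_1 (46.9 to 70.0) and fl (43.4 to 51.5) overlapped. Its mean was 1.42-fold higher (0.48 ± 0.13, limma, adjusted p = 0.0111). This call was lost when the libraries were scaled in other ways, with adjusted p values of 0.0857 after quantile normalization, 0.0512 with the 10 most abundant genes left out of the scaling and 0.219 with voom on recovered fragments.

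Tlr13 was 37.1, 40.6 and 45.1 FPKM in Gr_1, above all fl libraries, and rose 2.05-fold (1.0 ± 0.17, limma, adjusted p = 0.000927). Tlr9 was 3.41, 2.23 and 3.86 FPKM in Gr_1, below all fl libraries, and fell 3.09-fold (-1.39 ± 0.21, limma, adjusted p = 0.000479). Tlr13 and Tlr9 thus moved in opposite directions between the same libraries. Tlr7, at 4.16, 4.52 and 6.38 FPKM in Gr_1, overlapped fl through fl C and Gr_1 C, and its difference of -0.45 did not pass (limma, adjusted p = 0.0901). It passed without fl C (adjusted p = 0.0434), without Gr_1 C (0.0448) and with voom (0.00777). Tlr8 was 8.61, 8.40 and 10.6 FPKM in Gr_1 and overlapped fl (0.19, limma, adjusted p = 0.428), with a sign that turned under voom and without fl C.

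Marker genes differed between Gr_1 and fl as well, where 30.0% of all genes tested passed as higher and 31.4% as lower. Neutrophil markers passed as higher in 9 of 10 (sums of 162739 to 166058 FPKM against 62577 to 69774), monocyte markers as lower in 10 of 10 (985 to 1087 against 2601 to 2667) and B cell markers as higher in 8 of 8 (273 to 292 against 63.1 to 85.6). Macrophage markers summed to 128 to 139 FPKM in Gr_1 (5 of 8 higher, 3 lower), conventional dendritic cell markers to 13.6 to 18.8 (2 of 6 higher, 4 lower), plasmacytoid dendritic cell markers to 67.8 to 93.8 (3 of 6 higher, 2 lower) and T and NK cell markers to 20.8 to 25 (1 of 6 higher, 2 lower). Their part in the receptor differences was not tested.

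The bases before the start sites of Tlr5 and Tlr13, which rose in Gr_1 against fl, and of Tlr9 and Tlr1, which fell, are shown side by side. Tlr6, which rose 2.41-fold, is not shown. They come from the RefSeq promoter table for GRCm38.p6, which matched 8 of the 10 members (all but Tlr4 and Tlr7), and were trimmed to bases before both the RefSeq and the GENCODE start. Capitals mark GAGGAA, the core recognised by the myeloid factor PU.1, and GGGCGG, a GC box, on either strand.
Tlr5, chr1:182954538-182954787, plus strand: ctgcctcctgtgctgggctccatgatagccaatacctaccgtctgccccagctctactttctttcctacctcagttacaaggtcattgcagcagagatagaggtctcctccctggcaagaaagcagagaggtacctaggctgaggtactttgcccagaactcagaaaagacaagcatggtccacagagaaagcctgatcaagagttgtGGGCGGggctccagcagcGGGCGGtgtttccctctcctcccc
Tlr13, chrX:106143025-106143203, plus strand: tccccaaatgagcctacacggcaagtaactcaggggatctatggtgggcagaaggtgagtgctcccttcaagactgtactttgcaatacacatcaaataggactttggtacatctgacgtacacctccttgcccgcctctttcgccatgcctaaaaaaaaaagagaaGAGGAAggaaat
Tlr9, chr9:106222348-106222597, plus strand: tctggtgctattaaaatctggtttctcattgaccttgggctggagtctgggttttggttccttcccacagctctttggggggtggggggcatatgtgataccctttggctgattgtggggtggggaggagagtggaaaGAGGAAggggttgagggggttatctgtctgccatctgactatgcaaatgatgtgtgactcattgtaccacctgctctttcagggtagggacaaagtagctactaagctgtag
Tlr1, chr5:64933564-64933808, minus strand: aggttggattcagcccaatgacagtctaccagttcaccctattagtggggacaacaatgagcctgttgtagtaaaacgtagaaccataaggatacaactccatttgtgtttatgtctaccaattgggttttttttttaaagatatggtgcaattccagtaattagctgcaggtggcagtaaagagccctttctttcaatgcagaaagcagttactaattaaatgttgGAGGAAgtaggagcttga
Tlr5, which rose, holds GGGCGG at 42 and at 24 bases before its start and no GAGGAA. Tlr13, which rose, and Tlr9 and Tlr1, which fell, each hold 1 GAGGAA, which lies 83 bases before the RefSeq start of Tlr13, 112 before that of Tlr9 and 23 before that of Tlr1. In windows of 250 bases before the start and on both strands, GAGGAA was found in 4 of the 8 members (Tlr1, Tlr8, Tlr9 and Tlr13) and in 23.3% of 32851 promoters, and GGGCGG in 2 of the 8 (Tlr2 and Tlr5) and in 32.7% of promoters. TTGCNNAA, a core of C/EBP sites, was in 3 of the 8 and 9.56% of promoters. TATAAA, the TATA box, was in 2 of the 8 and 12.4% of promoters. GAGGAA was thus held by Tlr9 and Tlr1, which fell, and by Tlr13, which rose, but not by Tlr2, Tlr5 or Tlr6, which rose. Tlr8, which also holds it, did not pass in Gr_1 against fl. These matches describe letters, not bound sites.

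The libraries labelled KO were set directly against Gr_1. This comparison shares its libraries with the other comparisons, so its values are not independent of them. Tlr5, Tlr6, Tlr2, Tlr4, Tlr8 and Tlr13 were lower in the libraries labelled KO and Tlr1 was higher. These 7 of 9 tested (77.8%) stand against 55.7% of all genes tested, of which 28.9% passed as lower and 26.7% as higher. The median log2 change was -0.81, against 0.01 over all genes tested, and groups did not overlap for 7 of the 10 members, beside 68.2% of all genes tested.

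By size, the mean of Tlr5 was 6.70-fold lower in the libraries labelled KO (log2 change -2.02 ± 0.15, limma, adjusted p = 3.34e-05). Tlr5 entered this test too through Gr_1, where it is high. The limma fit without a filter on low values gave the same change with an adjusted p of 0.000178. Tlr13 was 2.76-fold lower (-1.43, adjusted p = 0.000193), and Tlr2 was 2.22-fold lower (-1.11, adjusted p = 0.00019). Tlr6 was 2.24-fold lower (-0.92, adjusted p = 0.000292) and Tlr4 1.72-fold lower (-0.65, adjusted p = 0.000887). Tlr8, which did not pass in either comparison with fl, was lower here (-0.81, limma, adjusted p = 0.00735), with all libraries labelled KO below all Gr_1 libraries. Tlr1 was higher by 0.35 (adjusted p = 0.0373), a call lost without KO A (adjusted p = 0.0614), KO C (0.132), Gr_1 A (0.105) or Gr_1 B (0.104). Tlr9 overlapped and did not pass (0.39, adjusted p = 0.149), but did without KO B (0.60, adjusted p = 0.027) and under voom (0.85, adjusted p = 0.0145). Without KO C, Tlr5 (-2.05), Tlr13 (-1.43), Tlr2 (-1.09), Tlr6 (-0.93), Tlr4 (-0.63) and Tlr8 (-0.79) still passed as lower, with adjusted p from 0.000339 for Tlr5 to 0.0256 for Tlr8 by limma. Tlr7 lay at -0.11 (adjusted p = 0.671), a sign that turned with the 10 most abundant genes left out of the scaling, under voom, without KO B and without Gr_1 C. Between these groups 9 of 10 neutrophil markers were lower and 8 of 10 monocyte markers higher in the libraries labelled KO, and 8 of 8 B cell markers were lower, whose part was not tested. These counts stand beside 28.9% of all genes tested that passed as lower and 26.7% as higher.

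**Figure D2:**
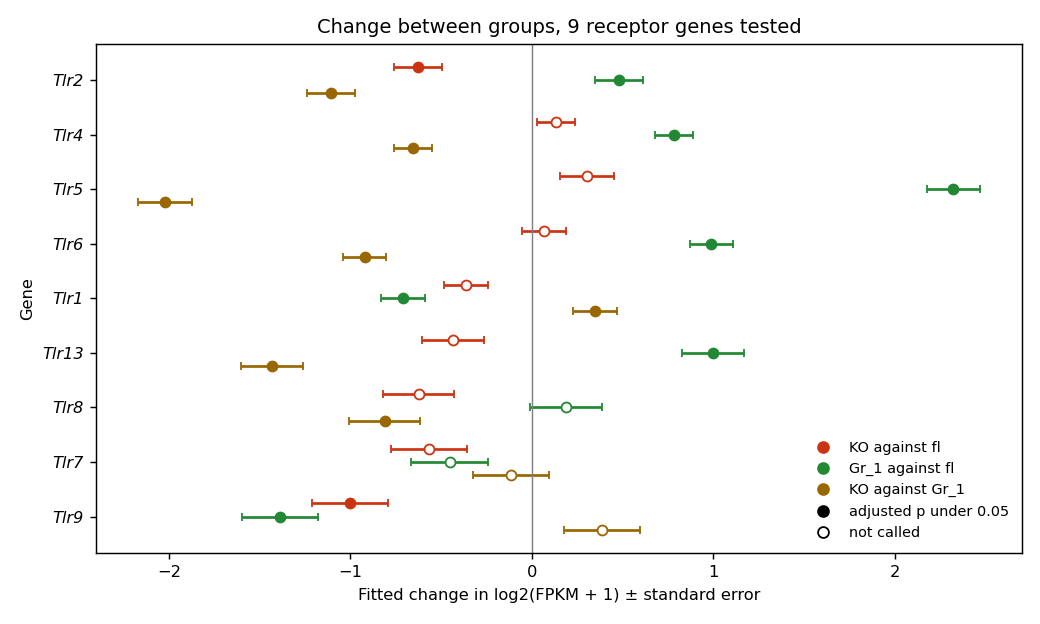
Log2 change of each of the 9 tested Toll-like receptors in the 3 comparisons, fitted on log2(FPKM + 1), with the standard error as bars and filled points for genes called at an adjusted p under 0.05. Tlr2 and Tlr9 are called in KO against fl, and Tlr5 has the widest change of the 9 in both comparisons with Gr_1. The signs of Tlr6 (KO against fl), Tlr8 (Gr_1 against fl) and Tlr7 (KO against Gr_1) turn under other settings.

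Set side by side as deposited, the mean of the libraries labelled KO was below both other groups for Tlr2, Tlr7, Tlr8 and Tlr13. It lay between them for the other 6 members. For Tlr7 this place depended on the scaling, since the libraries labelled KO and Gr_1 overlapped and the sign of their difference turned under other settings. Tlr3, among the 6, was too low to be tested. Ratios between 2 receptors of the same library do not depend on how the library was scaled. The ratio of Tlr5 to Tlr9 was 0.0711 in fl (0.0676 to 0.0773), 0.244 in the libraries labelled KO (0.219 to 0.262) and 2.54 in Gr_1 (1.73 to 3.68). The 3 groups did not overlap in this ratio, and the libraries labelled KO lay between the others. The ratio of Tlr6 to Tlr1 was 0.927 in fl (0.797 to 1.17), 1.41 in the libraries labelled KO (1.23 to 1.67) and 4.69 in Gr_1 (4.21 to 5.22), again without overlap. The ratio of Tlr2 to Tlr4 had another order, at 13.1 in fl (12.0 to 14.5), 7.44 in the libraries labelled KO (7.02 to 7.83) and 9.52 in Gr_1 (8.94 to 10.5). Tlr8 and Tlr7, neighbours on the X chromosome, kept a like ratio in fl (1.11) and the libraries labelled KO (1.07), and had 1.87 in Gr_1. The ratio of Tlr13 to Tlr7 was 2.81 in fl, 3.24 in the libraries labelled KO and 8.33 in Gr_1. Without KO C, the means for the libraries labelled KO were 0.24 for Tlr5 to Tlr9, 1.5 for Tlr6 to Tlr1, 7.42 for Tlr2 to Tlr4, 1.09 for Tlr8 to Tlr7 and 3.25 for Tlr13 to Tlr7. These ratios were chosen after the values of the members were known and carry no test.

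**Figure D3:**
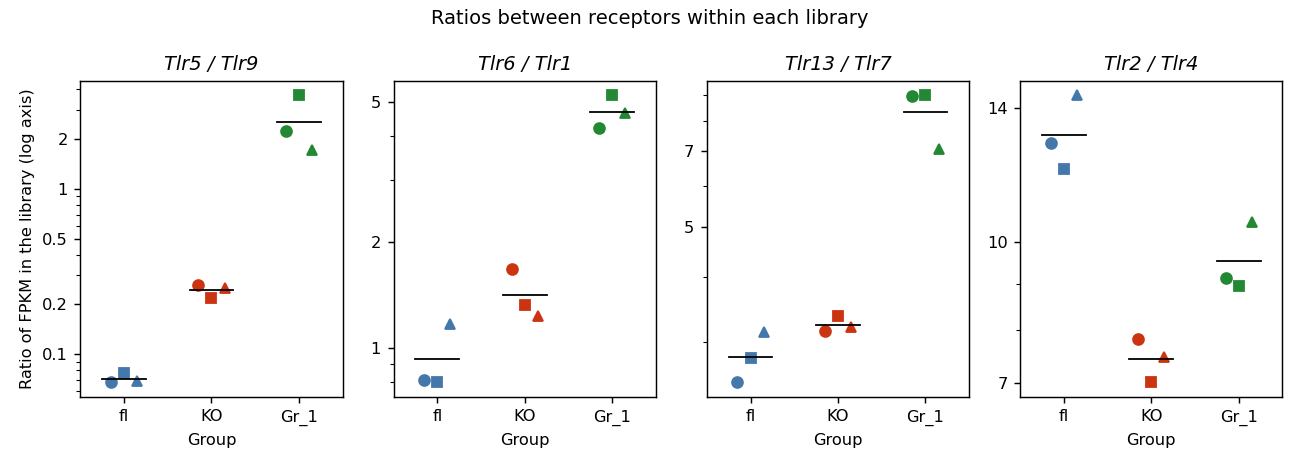
Ratios of FPKM between pairs of receptors within each library (log axis), by group, with points for libraries and a bar for the group mean. Tlr5 to Tlr9 goes from 0.0711 in fl through 0.244 in the libraries labelled KO to 2.54 in Gr_1, without overlap between groups.

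The genes whose profile over the 9 libraries lay nearest to each receptor were taken by the root mean square difference of centred log2(FPKM + 1). For Tlr13 the nearest was Themis2, an adaptor-like protein of myeloid and B cells, at 0.05. For Tlr9 they were Phf11b at 0.05 and, farther off, Mpeg1, which encodes the pore protein perforin-2 of phagocytes (0.15), and Csf1r, which receives the growth signal M-CSF (0.16). For Tlr2 they were Tifa (0.12), Ninj1 and Klf3, and for Tlr1 Irf2bpl (0.06), Hsf2 and Tnip2. Tlr5 was nearest to 6430548M08Rik (0.07), Phospho1 and A530064D06Rik, and Tlr4 to Skil, Spty2d1 and Slu7 (0.07 to 0.08). Tlr6 was nearest to mt-Rnr1, Nmrk1 and Fbxo31 (0.06 to 0.07), Tlr7 to Camk1d, Nrp1 and Epsti1 (0.14 to 0.16) and Tlr8 to Il18, March1 and Evi2a (0.10 to 0.13). With 9 libraries in 3 groups, likeness mostly reflects the order of the 3 group means.

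The proteins that load, fold, transport and relay for these receptors were read from a list of 46 genes, of which 43 were tested. In the libraries labelled KO, 10 were lower than in fl (Cd180, Ly86, Unc93b1, Cnpy3, Slc15a4, Ticam2, Ikbkb, Nfkb1, Irf5 and Dusp1) and 0 were higher by limma. At an unadjusted p under 0.05, 4 were higher and 16 lower, with no share of all genes given at that threshold. Under voom or quantile normalization or without fl C, 1 was called higher. With the 10 most abundant genes left out of the scaling, 3 were called higher and 7 lower. The 10 lower calls of the main fit are 23.3% of the 43 tested. Of all genes tested, 11.0% passed in either direction and 6.52% as lower. The list's median log2 change was -0.10, against -0.01 over all genes tested. Of the 5 genes for transport and folding, 3 passed as lower.

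Irf5, a transcription factor that acts after Myd88 and is also among the monocyte markers used here, was 84.0, 86.2 and 84.7 FPKM in fl and 38.3, 28.9 and 33.2 in KO A, B and C. Every library labelled KO was below every fl library (log2 change -1.33 ± 0.11, limma, adjusted p = 0.000456). Ticam2, the adaptor that links Tlr4 to Ticam1, was 4.98, 5.63 and 5.65 FPKM in fl and 3.10, 2.66 and 2.72 in the libraries labelled KO (-0.75, limma, adjusted p = 0.000959). Dusp1, a phosphatase that turns off MAP kinases, went from 343.6 ± 24 to 233.7 ± 8.01 FPKM (-0.55, limma, adjusted p = 0.00375), without overlap. Unc93b1, the chaperone that carries the nucleic-acid receptors to endosomes, was 152.3, 162.1 and 175.6 FPKM in fl and 113.5, 85.2 and 100.3 in the libraries labelled KO (-0.71 ± 0.11, limma, adjusted p = 0.00392). These 4 genes and Ly86 passed in all 9 fits that left out a library. The other 5 did not, and Nfkb1 passed in 0 of the 9. The list's count fell to 5 without KO C and to 6 without fl A, fl B or KO B, and it was 5 when fl and the libraries labelled KO were fitted alone. Cd180, a receptor-like protein that pairs with Ly86, was called (-0.93, adjusted p = 0.0276), but not without KO C, KO B, fl A or fl B.

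Other parts of the route to the receptors did not pass between the libraries labelled KO and fl in the main fit. Cd14, which hands lipopolysaccharide to Tlr4, was 54.8, 63.0 and 64.2 FPKM in fl and 33.4, 52.3 and 42.2 in the libraries labelled KO (-0.52, limma, adjusted p = 0.128). Ly96, the subunit of the Tlr4 complex that binds it, lay at -0.40 (adjusted p = 0.117). Among adaptors, Myd88 lay at -0.05 (adjusted p = 0.785), Tirap at 0.32 (adjusted p = 0.104) and Ticam1 at -0.23 (adjusted p = 0.161). Under voom Tirap passed as higher (0.41, adjusted p = 0.0247). The inhibitory kinase Irak3 lay at 0.18 (adjusted p = 0.106). Tlr11, Tlr12 and Sarm1 did not reach the test. Tlr11 was 0.611, 0.50 and 0.694 FPKM in fl, 0.261, 0.112 and 0.183 in the libraries labelled KO, with 0.114, 0.219 and 0.267 in Gr_1, with fl above all others.

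Between Gr_1 and fl, 31 of the 43 passed (72.1%, beside 61.4% of all genes tested), 17 as higher and 14 as lower, with a median log2 change of 0.18. The split moved with the scaling, to 13 higher and 15 lower after quantile normalization, 12 and 16 with the 10 most abundant genes left out of the scaling, and 7 and 19 under voom. The 17 were Slc15a3, Tirap, Tab3, Pik3ap1, Peli1, Myd88, Ikbkg, Irak4, Irak2, Irak3, Dusp1, Btk, Tollip, Rnf216, Rela, Traf6 and Traf3, and the 14 were Ly86, Irf5, Cd180, Ikbke, Cd36, Ticam2, Ikbkb, Slc15a4, Cnpy3, Irak1, Unc93b1, Tab1, Ticam1 and Nfkb1. Under voom 10 of the 17 were lost (Dusp1, Tollip, Btk, Rela, Traf3, Rnf216, Irak3, Peli1, Traf6 and Irak2) and 0 of the 14. All 5 adaptors tested differed, with Tirap, Myd88 and Pik3ap1 higher and both Ticam1 and Ticam2 lower. Tirap, the bridge from Tlr2 and Tlr4 to Myd88, was 7.78 ± 1.1 FPKM in fl and 19.8 ± 0.731 in Gr_1 (SD, n = 3; 1.25, limma, adjusted p = 2.29e-05). Myd88 was higher by 0.51 (adjusted p = 0.00139), Ikbkg, the scaffold of the IKK complex, by 0.47 (adjusted p = 9.99e-05), and Irak3 by 0.40 (adjusted p = 0.000604), a call that voom did not make (0.12, adjusted p = 0.17). Slc15a3 and Slc15a4, both endolysosomal peptide and histidine transporters, moved in opposite directions. Slc15a3 rose by 1.77 (adjusted p = 0.000205) while Slc15a4 fell by 0.64 (adjusted p = 0.00143).

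Among those lower in Gr_1, Ikbke, an IKK-related kinase, was 14.9 ± 0.372 FPKM in fl and 4.75 ± 0.278 in Gr_1 (-1.47, limma, adjusted p = 1.45e-06). Irf5 (-1.91, adjusted p = 2.95e-06), Ticam2 (-1.06, adjusted p = 8.58e-06) and Cd180 (-1.65, adjusted p = 0.00021) were lower as well, as was Ticam1 (-0.38, adjusted p = 0.00653). Cd14 (0.28, adjusted p = 0.237) and Ly96 (0.30, adjusted p = 0.102) did not pass. Against Gr_1, the libraries labelled KO had 12 of the 43 higher and 19 lower (72.1%, beside 55.7% of all genes tested). This split turned with the scaling, to 15 higher and 12 lower with the 10 most abundant genes left out and to 20 and 8 under voom, where 11 of the 19 lower calls were lost. After quantile normalization it was 12 and 14. Among the 19 were Cd14 (-0.80, limma, adjusted p = 0.00729), a call lost under voom (adjusted p = 0.0541), and Ly96 (-0.69, limma, adjusted p = 0.00328).

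**Figure D4:**
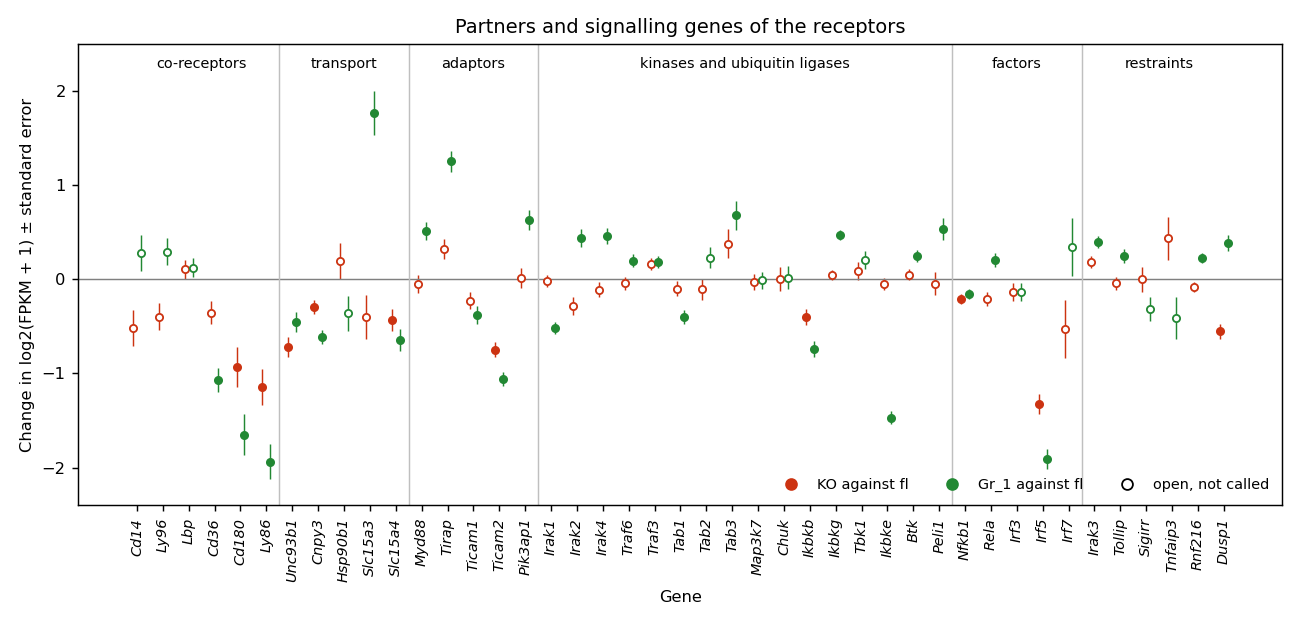
Log2 change of the named genes that work with Toll-like receptors in KO against fl and in Gr_1 against fl, fitted on log2(FPKM + 1), with the standard error as bars and filled points for genes called at an adjusted p under 0.05. Irf5 (-1.33 and -1.91) and Ticam2 (-0.75 and -1.06) are called lower in both comparisons, which share the fl libraries. In the fit shown, Tirap (0.32 and 1.25) is called only in Gr_1 against fl, but under voom it is also called in KO against fl (adjusted p = 0.0247).

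Genes that signalling through these receptors is known to induce were read from a list of 18, of which 14 were tested. In the libraries labelled KO against fl, 1 was higher and 3 were lower (Zfp36, Cd86 and Cd40), 28.6% of those tested, beside 11.0% of all genes tested. At an unadjusted p under 0.05 the counts were 5 higher and 3 lower, with no share of all genes given at that threshold. Cxcl2 (0.88, adjusted p = 0.0905) and Ptgs2 (0.93, adjusted p = 0.0745), named after their values were seen, had every library labelled KO above every fl library but did not pass. Under voom Ptgs2 passed (1.08, adjusted p = 0.0368) and Cxcl2 did not (0.96, adjusted p = 0.0554). Il1b, the cytokine interleukin-1 beta, was 11.2, 10.6 and 9.59 FPKM in fl and 180.5, 40.0 and 107.9 in KO A, B and C. All libraries labelled KO were far above fl, with KO C again between the other 2 (log2 change 3.03 ± 0.43, limma, adjusted p = 0.00339). Zfp36, an RNA-binding protein that destabilises cytokine transcripts, went from 360.3 ± 31.5 to 216.9 ± 4.97 FPKM (-0.73, limma, adjusted p = 0.00152), without overlap. The co-stimulatory receptor Cd86 was lower by a log2 change of -0.70 (adjusted p = 0.00857), and Cd40 passed as lower (adjusted p = 0.0238) but not without KO C, KO B or any 1 fl library. Without KO C, Il1b (2.91, adjusted p = 0.0196), Zfp36 (-0.72, adjusted p = 0.013) and Cd86 (-0.69, adjusted p = 0.0402) still passed by limma. Between Gr_1 and fl, Il1b, Ptgs2, Cxcl2 and Nfkbiz were higher and Ccl3, Ccl5, Cd40 and Cd86 lower, 8 of 14 (57.1%, beside 61.4% of all genes tested).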

How the data were processed

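RNA sequencing gave 9 libraries in 3 groups of 3, taken from the sample titles. The deposited table holds FPKM values for 54532 Ensembl genes, per the file headers. The submitters' processing notes name featureCounts 1.5.0-p3, DESeq2 1.16.1 and the builds mm10 and GRCm38, with the aligner not given in the sources used here. Multiplied by GENCODE M21 exon length (54495 genes matched, 37 did not), the deposited FPKM values came out as whole fragments within 0.02 for 97.2% to 97.5% of values under 1000 fragments per library. The denominators so recovered were 16.0 to 22.0 M (mega), against totals of 18.3 to 21.5 M, so the FPKM carry a scaling other than the library total. In Gr_1 each denominator (16.0 to 18.2 M) was below its own total (18.6 to 21.5 M), which raises FPKM. In fl (18.5 to 22.0 M) and the libraries labelled KO (19.9 to 21.7 M) each was above its own total. The 10 most abundant genes of a library held 38.5% to 39.4% of its summed FPKM in Gr_1. They held 24.3% to 25.3% in fl and 25.8% to 30.4% in the libraries labelled KO. A floor of 3 fragments on 1 kilobase of exon is 0.136 to 0.187 FPKM and covers counting error only.

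Genes with at least 1 FPKM in at least 3 libraries (12289) were fitted as log2(FPKM + 1) with limma 3.58.1 (R 4.3.3) and a mean-variance trend, with all 9 libraries in 1 fit, a term per group and no block (6 residual degrees of freedom). P-values are two-sided and were adjusted over all 12289 genes by the Benjamini-Hochberg method. Genes with an adjusted p under 0.05 are called. The log2(FPKM + 1) scale understates changes of low genes, and folds are ratios of mean FPKM. The exact permutation test of 3 against 3 libraries cannot go below 0.1. The scripts were tested on simulated data. Tables were built in Python 3.11.15 using pandas 2.3.3, scipy 1.17.1 and numpy 2.4.6, and plots with matplotlib 3.10.9.

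The members and gene lists were chosen with earlier results of these data known. All members are named. Of the partner list, all genes called in either comparison with fl are named, but not all of those called in KO against Gr_1. Values are given for up to 4 per direction with the smallest adjusted p in KO against fl and up to 3 in Gr_1 against fl. Cd14, Ly96, Unc93b1, Myd88, Ticam1, Tirap, Irak3 and Cd180 are named whatever their values. Of the response list, up to 3 called genes per direction in KO against fl are given values. For each tested member the 3 nearest profiles are named. Tlr11, Ly86, Cxcl2, Ptgs2 and the response genes of Gr_1 were named after their values were seen. Alternatives were a pseudocount of 0.1, no filter and a filter of 2 FPKM, quantile normalization, scaling without the 10 most abundant genes, voom on recovered fragments, only the groups compared, a replicate block and leaving out each library. Rescaling to the recovered library totals was added after seeing the data.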

Additional observations from a re-analysis of the deposited data

How the results depend on the processing

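Of 458 changes of single receptors recomputed under alternatives, 425 kept direction and side of the threshold, 11 newly passed, 15 no longer passed and 7 turned sign. The 7 were Tlr6 in KO against fl without KO A (-0.0097, the range over left-out libraries reaching 0.16), Tlr8 in Gr_1 against fl under voom (-0.095) and without fl C (-0.0035, the range reaching 0.29), and Tlr7 in KO against Gr_1 without the 10 most abundant genes in the scaling (0.042), under voom (0.21), without KO B (0.067, the highest of a range from -0.29) and without Gr_1 C (0.043), and none of them passed in either fit. The count of receptors called in KO against fl, 2, was 1 without a filter on low values, where Tlr9 had an adjusted p of 0.0538, and ranged from 0 to 4 when single libraries were left out. In Gr_1 against fl it ranged from 7 to 8 and in KO against Gr_1 from 6 to 8. The 10 partner genes called in KO against fl became 5 when only the 2 groups were fitted and ranged from 5 to 10 when single libraries were left out. The cause of these changes was not tested.

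Scaling moved the median of all genes. In Gr_1 against fl it was -0.03, but -0.33 under voom and -0.12 without the 10 most abundant genes, and in KO against Gr_1 it was 0.01, 0.35 and 0.16. Relative to these medians Tlr2 was higher in Gr_1 than fl by 0.51, 0.52 and 0.49. After quantile normalization, where the median was -0.08, it was higher by 0.40. The split of genes called higher and lower in Gr_1 against fl was 3686 to 3864, 2383 to 5962 under voom and 3052 to 4600 without the 10 genes. In KO against Gr_1 it was 3287 to 3556, 6091 to 2023 and 4819 to 2532, and in KO against fl 551 to 801, 865 to 781 and 815 to 578.

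The letters of the libraries were not taken as pairs in the main fit. Deviations of same-lettered libraries from their group means correlated at -0.06 to 0.14. With 3 libraries per group this cannot exclude that a letter marks a shared batch. With the letter as a replicate block, 2 receptors were called in KO against fl, 7 in Gr_1 against fl and 7 in KO against Gr_1, where Tlr1 no longer passed (adjusted p = 0.072) and Tlr9 did (adjusted p = 0.0375). Depth limits Tlr3, at 7 to 27 fragments per library.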

Other observations

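Tlr11 and Tlr12, the remaining Toll-like receptors of the mouse in the table, were too low for the filter of 1 FPKM. In the fit without a filter, Tlr11, which senses profilin of parasites, was lower than in fl both in the libraries labelled KO (log2 change -0.43, limma, adjusted p = 0.0221) and in Gr_1 (-0.42, adjusted p = 0.0036), comparisons that share the fl libraries. It rested on 34 to 44 fragments per fl library, 8 to 17 per library labelled KO and 6 to 14 per Gr_1 library. Tlr12 was 0.157, 0.273 and 0.528 FPKM in fl, 0.475, 0.550 and 0.420 in the libraries labelled KO, with 0.589, 0.485 and 0.472 in Gr_1, and the groups overlapped.

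Il6, a cytokine gene of the response list, had the reverse order within the libraries labelled KO to most receptors. It was 2.53, 8.09 and 5.43 FPKM in KO A, B and C, 1.46, 1.83 and 2.38 in fl and 0.231, 0.272 and 1.57 in Gr_1. Every library labelled KO lay above all fl and Gr_1 libraries, and the difference passed against Gr_1 (log2 change 1.89, limma, adjusted p = 0.00264) but not against fl (1.04, adjusted p = 0.116). Ccl5, a chemokine gene, had the same order within the libraries labelled KO, at 6.55, 23.1 and 16.5 FPKM.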
